A study of Oryza sativa with 12 samples.

Results

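The night heat response of a heat-sensitive rice line was described across every row of the deposited transcriptome table that passed a filter on low counts, 33281 of 50708 rows, and the other 17427 rows were not tested. The libraries came from the heat-sensitive line XN0437S, 3 under high night temperature stress and 3 in control, taken at the grain filling stage. XN0437S is near-isogenic to the heat-tolerant line XN0437T, whose 3 stress and 3 control libraries entered the same statistical fit and are used where the response of the lines is compared. The labels give the material only as rice, and neither the organ nor the temperature or length of the stress is stated there. Whether the 3 libraries of a group are separate plants is not stated either, so a p-value reflects spread among libraries that could be technical.

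Cells exposed to heat accumulate unfolded proteins, and heat stress transcription factors then switch on genes for chaperones, the proteins that hold or refold them. Beyond the heat shock proteins, plants under heat are known to change osmoprotective sugars, membrane lipids, cell walls, transporters and hormone signals. A filling rice grain consists mostly of endosperm, which stores starch and protein made from sucrose delivered by the mother plant. Warm nights in this phase are known to reduce grain filling and grain quality in rice. The results below therefore go from protein folding and degradation through RNA and translation to walls, transport, metabolism, signalling and transcription factors.

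The 6 libraries held 89696645 to 95433733 counts under stress and 89267046 to 90952734 counts in control. A count was found at 33266 to 33437 rows per stress library and at 31536 to 31763 rows per control library. The 5 rows with the most counts took 26.4% to 28.6% of a stress library and 32.8% to 33.7% of a control library. The scaling factors of edgeR's trimmed mean of M values (TMM) were 1.11 to 1.14 under stress and 0.838 to 0.854 in control. Across rows, log2 levels of 2 libraries correlated at 0.943 to 0.945 within stress, at 0.934 to 0.935 within control, and at 0.886 to 0.892 between stress and control. Levels are given as TMM-scaled CPM, a library's counts divided by the product of its total and its scaling factor. The levels of a library therefore do not sum to a common total, and their sum was lower under stress, as given below. Levels do not correct for gene length, and are compared only within a row or as a sum over the same rows. A level with a ± sign is the mean and SD of 3 libraries.

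Transcripts that define the endosperm were present in every library, and their summed level was lower under stress. The 23 tested storage protein and amylose synthase rows summed to 61360 to 66901 CPM in the stress libraries, against 119044 to 126072 CPM in the control libraries. Of them, 18 fell and 0 rose, with a median log2 fold change of -0.99, or -0.58 with scaling by library totals alone. The sum over all tested rows was also lower under stress, at 883755 CPM against 1179280 CPM in control. Rows of 21 embryo proteins summed to 8592 to 9281 CPM under stress, against 8672 to 8729 CPM in control, with 10 higher and 6 lower. Rows of 15 green tissue proteins summed to 1126 to 1174 CPM under stress, against 1110 to 1184 CPM in control, with 6 higher and 3 lower. No marker row was at 0 over all 6 libraries. In bulk RNA, fewer cells of a type and less RNA per cell cannot be told apart, and the part of the endosperm markers in the results below was not tested.

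Across the whole table, the stress changed about as many transcripts upward as downward on the TMM scale. With edgeR's quasi-likelihood test at a Benjamini-Hochberg adjusted p under 0.05, which is what "called" means throughout, 10695 rows were called, 32.1% of those tested. Of these, 5416 rose (16.3%) and 5279 fell (15.9%). Changes of 2-fold or more were called for 2823 rises (8.48%) and 1833 falls (5.51%), and changes of 8-fold or more for 760 rises and 296 falls. All 3 stress libraries lay above all 3 control libraries at 8049 rows (24.2%) and below them at 7409 rows (22.3%). The balance depends on the scaling. The median log2 fold change of all rows was 0.04 with TMM and 0.46 with library totals alone, and with library totals 10358 rows were higher and 2027 lower. Every log2 fold change below is on the TMM scale, stress minus control, with its standard error after the ± sign. A list median within 0.41 below 0 is therefore above 0 with library totals, and both medians are given where a list is said to lean downward.

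**Figure D1:**
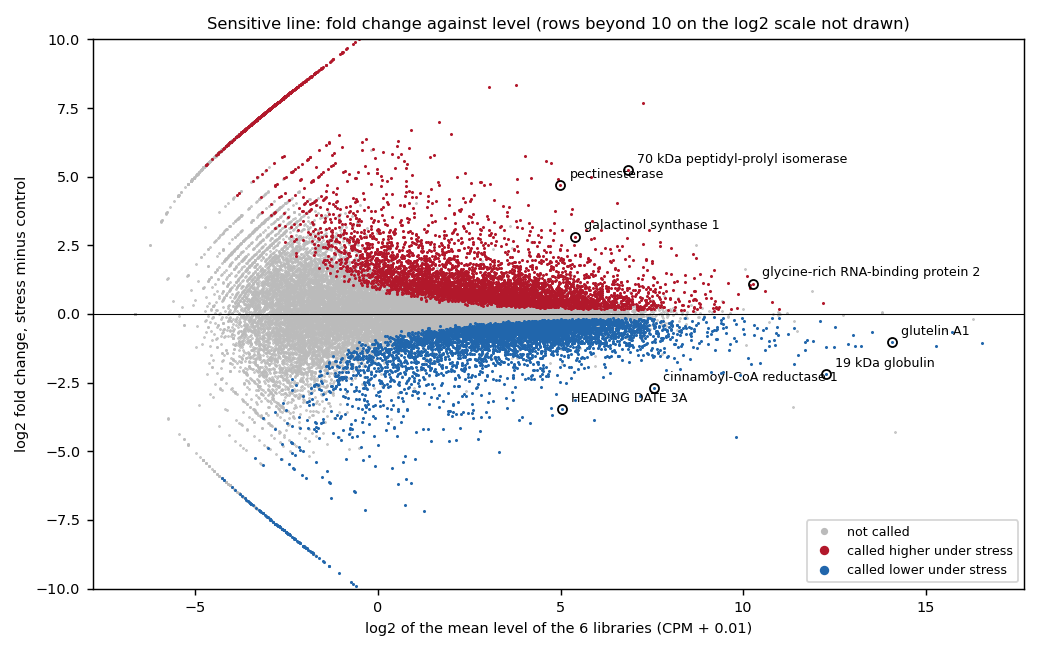
Log2 fold change (stress minus control, vertical axis) against log2 mean level of the 6 sensitive-line libraries (CPM, horizontal axis); each point is a tested row, red where called higher under stress, blue where called lower, grey where not called. Rises outnumber falls at low levels (922 against 439 under 1 CPM) and falls outnumber rises at high levels (385 against 248 over 100 CPM).

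The direction of the called rows went with their level. Among 12211 rows with a mean under 1 CPM, 922 rose and 439 fell, and among 7858 rows of 1 to 5 CPM, 1527 rose and 1001 fell. Between 5 and 20 CPM, 1629 of 7700 rows rose and 1786 fell, and between 20 and 100 CPM, 1090 of 4654 rose and 1668 fell. Among the 858 rows over 100 CPM, 248 rose and 385 fell. The same lean separated annotated from unannotated rows. A named protein was given for 14351 tested rows, of which 2763 rose (19.3%) and 3106 fell (21.6%), while of 18930 rows without one 2653 rose (14.0%) and 2173 fell (11.5%). The lists below are matched on descriptions, so the shares of the named rows are a nearer comparison for them than those of all rows. Of 4822 rows with no locus name, 584 rose and 359 fell, and of 109 rows described as transposons 11 rose and 9 fell. Rises of 2-fold or more comprised 45 rows whose description holds heat shock, HSP or a word beginning with chaperon. Beside them stood 1159 rows with another named protein and 1622 rows without one, a few of which also hold such a word. These words also take in chaperonins and chaperone regulators, which are taken up again below. Heat shock and chaperone descriptions therefore made up a small part of the rise in number, and they are also few, 124 of 33281 tested rows. Of these 124 rows, 61 rose and 13 fell, with a median log2 fold change of 0.54. Their share of rises was above the 16.3% of all tested rows and the 19.3% of rows with a named protein.

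The largest rises outside the heat shock proteins were folding helpers, wall enzymes and a plastid protease. The rule for naming them left out the same heat shock and chaperone descriptions. It also required that stress and control libraries not overlap, so that adds nothing here or below. A DnaJ protein of subfamily B (LOC_Os01g42190), a partner that delivers clients to Hsp70, had 14.3, 18.5 and 16.6 CPM under stress, against 0.157, 0 and 0 CPM in control. Its control counts were 12, 0 and 0, so the fitted log2 fold change of 8.26 ± 0.74 depends on the prior count. Set against a floor of 12 counts per control library, the ratio was 105-fold. A 70 kDa peptidyl-prolyl isomerase (LOC_Os04g28420), an FKBP that works with Hsp90, had 222, 219 and 230.3 CPM under stress, against 6.41, 5.22 and 6.099 CPM in control, and changed by log2 5.24 ± 0.13 (adjusted p = 5.37e-11). FTSH 6 (LOC_Os06g12370), a chloroplast metalloprotease known in Arabidopsis to degrade a plastid small heat shock protein, had 14.7, 16.5 and 16.9 CPM under stress, against 0.498, 0.577 and 0.708 CPM in control. Its log2 fold change was 4.75 ± 0.18, and no stress library came near a control library. Among secreted and receptor proteins, the cysteine-rich repeat protein 55 (LOC_Os08g04210) had 5.48, 6.105 and 5.53 CPM under stress, against 0.157, 0 and 0.144 CPM in control. With control counts of 12, 0 and 11, its ratio against the floor was 36.3-fold. The proline-rich receptor kinase PERK1 (LOC_Os03g16260), of a family proposed to sense the cell wall, had 14.6, 14.1 and 14.7 CPM under stress, against 0.445, 0.577 and 0.6296 CPM in control, a log2 fold change of 4.71 ± 0.22.

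Wall-loosening enzymes stood among the same 12 largest rises. Expansin-B15 (LOC_Os04g46630), from a family that loosens walls during growth, had 34.9, 33.97 and 36.4 CPM under stress, against 0.852, 0.813 and 1.71 CPM in control. A neighbouring pair of β-expansin genes on chromosome 10 is described further below, and the stronger of its rises was that of expansin-B6 (LOC_Os10g40700), with 26.6, 27.1 and 26.4 CPM under stress, against 1.19, 1.25 and 1.27 CPM in control. The first of these changed by log2 4.96 ± 0.38 and the second by 4.43 ± 0.23. Pectinesterases remove methyl groups from wall pectin, and one of them (LOC_Os02g18650) had 63.7, 60.2 and 60.8 CPM under stress, against 2.21, 2.29 and 2.68 CPM in control, which is 4.68 ± 0.12 on the log2 scale (adjusted p = 7.30e-11). Another (LOC_Os01g15039) had 5.75, 6.39 and 3.76 CPM under stress, against 0, 0 and 0.302 CPM in control. Its control counts were 0, 0 and 23, and its ratio against the floor was 33.7-fold. The remaining large rises were an enzyme of vitamin B1 synthesis and a ubiquitin ligase. Thiamine thiazole synthase 2 (LOC_Os07g34570) had 13.9, 10.5 and 10.6 CPM under stress, against 0.472, 0.852 and 0.393 CPM in control, and the RING protein ATL44 (LOC_Os09g36500) had 18.4, 16.1 and 16.6 CPM under stress, against 0.747, 0.997 and 1.11 CPM in control. In both rows every stress library was more than 8-fold above every control library.

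Of the 12 rises, that of peroxiredoxin-2E-1 differed most between the lines. The row (LOC_Os06g42000), for a chloroplast enzyme that reduces peroxides, had 59.7, 57.95 and 58.3 CPM under stress, against 2.19, 1.82 and 1.797 CPM in control in the sensitive line, a log2 fold change of 4.92 ± 0.32. In the tolerant line the same row had 56.7, 55.9 and 21.3 CPM under stress, against 44.2, 41.6 and 34.5 CPM in control, a change of 0.15 ± 0.27 that was not called. The sensitive control libraries were lowest of all 12, and tolerant stress replicate 3 lay well below the other stress libraries. The difference between the lines was 4.77 on the log2 scale (adjusted p = 5.95e-05).

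The largest falls were transporters, secondary-metabolism enzymes, ethylene response factors and the florigen gene. AVT1I (LOC_Os06g12320), an amino acid transporter of the vacuolar family, had 0.264, 0.168 and 0.198 CPM under stress, against 4.89, 4.42 and 6.52 CPM in control, and fell by 4.64 ± 0.38 on the log2 scale. The plasma membrane aquaporin PIP2-4, listed as 1 row for LOC_Os07g26630 and LOC_Os07g26640, had 2.66, 1.71 and 2.099 CPM under stress, against 29, 36.5 and 35.02 CPM in control. The tonoplast aquaporin TIP4-2 (LOC_Os01g13130) had 0.8598, 0.767 and 1.101 CPM under stress, against 10.9, 10.3 and 12.1 CPM in control. Both water channels fell, with log2 fold changes of -3.96 ± 0.38 and -3.61 ± 0.17. A flavanone 3-dioxygenase (LOC_Os04g56700), from the enzyme family of flavonoid synthesis, had 0.713, 0.308 and 0.471 CPM under stress, against 10.2, 6.85 and 9.85 CPM in control. Laccase-10 (LOC_Os03g16610), an oxidase of the family that polymerises lignin units, had 4.104, 4.16 and 3.61 CPM under stress, against 54.1, 43.9 and 54.1 CPM in control, which is -3.68 ± 0.13 on the log2 scale (adjusted p = 7.57e-10). A protein known for its induction by the brown planthopper (LOC_Os06g29730) had 0.401, 0.355 and 0.932 CPM under stress, against 6.16, 7.199 and 7.54 CPM in control.

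A pair of genes tied to oxygen sensing in plants fell in parallel. Plant cysteine oxidases use oxygen to mark group VII ethylene response factors for degradation. Plant cysteine oxidase 5 (LOC_Os09g14700) had 0.557, 0.5703 and 0.762 CPM under stress, against 6.83, 6.69 and 8.29 CPM in control, a log2 fold change of -3.53 ± 0.30. The ethylene-responsive factor ERF073 (LOC_Os03g08490), whose Arabidopsis namesake belongs to group VII, had 0.713, 1.84 and 1.05 CPM under stress, against 15.1, 13.7 and 14.5 CPM in control, a log2 fold change of -3.58 ± 0.27. RAP2-4 (LOC_Os08g31580), another ethylene-responsive factor, had 2.003, 2.18 and 1.496 CPM under stress, against 25.2, 28.9 and 27.7 CPM in control. Its change of -3.85 ± 0.82 rests on a row whose counts jumped between replicates of the tolerant line, which had 49.2, 47.1 and 4.401 CPM under stress, against 4.66, 33.4 and 29.6 CPM in control.

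**Figure D2:**
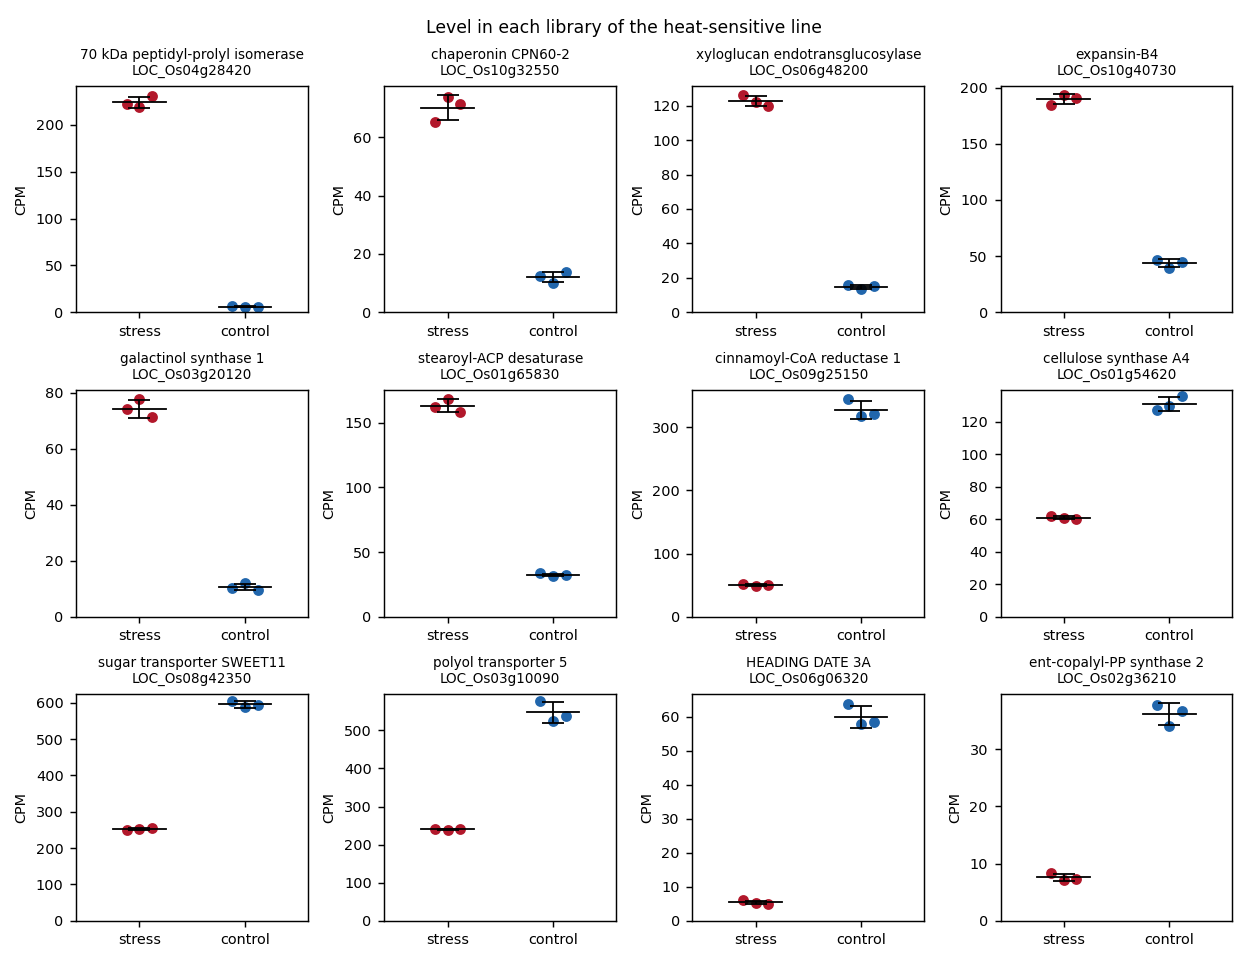
Level in CPM (vertical axes, each starting at 0) of 12 genes in the 3 stress libraries (red, left) and the 3 control libraries (blue, right) of the sensitive line; each point is a library, the horizontal line the mean and the bar the SD. The genes were named by a rule that required groups apart or after their values were seen, so that no groups overlap follows from their choice. The first 6 genes are higher under stress (CPN60-2 at 70.1 ± 4.30 against 12.1 ± 1.86 CPM) and the last 6 lower (HEADING DATE 3A at 5.45 ± 0.492 against 60.0 ± 3.21 CPM).

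Protein folding genes outside the heat shock families moved selectively, with the chaperonins of organelles at the front. Chaperonins are barrel-shaped complexes in which a protein folds in isolation. Of 29 tested chaperonin rows, 12 rose and 0 fell, and the median log2 fold change was 0.57. The Rubisco-binding subunits of the chloroplast chaperonin rose: the alpha subunit (LOC_Os12g17910) had 81.2, 85.4 and 82 CPM under stress, against 22.7, 23 and 21.04 CPM in control, and the beta subunit (LOC_Os06g02380) had 112, 116 and 118 CPM under stress, against 51.95, 50.3 and 59.4 CPM in control. Their log2 fold changes were 1.896 ± 0.07 and 1.097 ± 0.08. The mitochondrial CPN60-2 (LOC_Os10g32550), named after its values were seen, had 65.3, 73.6 and 71.5 CPM under stress, against 12.4, 10.2 and 13.9 CPM in control, a log2 fold change of 2.53 ± 0.11. That every stress library of these 3 rows stood above every control library follows from how they were chosen.

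The helpers of Hsp70 and Hsp90 were divided. Of 46 DnaJ rows, 13 rose and 8 fell, among them ERDJ3 type (LOC_Os03g18200), with 67.03, 81.6 and 71.3 CPM under stress, against 37.5, 26.5 and 33.8 CPM in control. Its rise was smaller than in the tolerant line, 1.17 ± 0.12 against 2.12 ± 0.12 on the log2 scale (adjusted p of the difference = 0.00784). Peptidyl-prolyl isomerases, which rotate proline bonds during folding, leant the other way, with 6 of 50 higher and 13 lower (median -0.28, or 0.14 with library totals). A second 70 kDa isomerase (LOC_Os02g28980) rose by 1.98 ± 0.13, while FKBP15-1 (LOC_Os09g32526) fell to 7.14 ± 1.94 CPM under stress, against 14.2 ± 1.03 CPM in control. Of 13 BAG and other cochaperone rows, 6 rose and 2 fell. The following 3 were chosen after their values were seen. The organizing protein that links Hsp70 to Hsp90 (LOC_Os02g43020) had 114, 111 and 56.3 CPM under stress, against 42.9, 42.9 and 41.3 CPM in control, and its stress replicate 3 lay well below the other stress libraries. The Hsp90 activator AHA1 (LOC_Os08g36150) had 54.8, 57.9 and 56.6 CPM under stress, against 14.3, 22.9 and 21.9 CPM in control. BAG3 (LOC_Os06g03640) fell by 1.01 ± 0.10, and by more in the tolerant line, at -1.75 ± 0.11 (adjusted p of the difference = 0.0176).

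Protein degradation genes showed no common direction. Of 57 proteasome rows, 9 rose and 14 fell (median -0.14, or 0.28 with library totals). The alpha type-3 subunit (LOC_Os05g41180) had 10.03 ± 1.21 CPM under stress, against 4.86 ± 0.344 CPM in control, while the beta type-4 subunit (LOC_Os09g33986) had 10.4 ± 1.13 CPM under stress, against 24.9 ± 2.18 CPM in control. Of 593 U-box, RING and F-box rows, which hold ubiquitin ligases, 136 rose and 112 fell, and 71 rises and 29 falls reached 2-fold. EID1-like F-box protein 3 (LOC_Os05g41490) rose by 2.94 ± 0.23, and a row on chromosome 6 described as the ubiquitin ligase GW2 (LOC_Os06g44275) fell by 3.37 ± 0.30. Among 23 autophagy rows, 3 rose and 5 fell, and the autophagy-related protein 2 (LOC_Os06g15700), which moves lipid to the growing autophagosome, had 125 ± 4.69 CPM under stress, against 81.96 ± 3.2 CPM in control. Protease inhibitors included the grain inhibitor of α-amylase and trypsin (LOC_Os07g12090), which had 216, 223 and 192 CPM under stress, against 896, 888 and 921 CPM in control. That change of -2.101 ± 0.06 contrasted with cysteine proteinase inhibitor 4 (LOC_Os01g68660), which rose by 2.59 ± 0.22. In all, 6 of 32 inhibitor rows rose and 10 fell.

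Among genes for RNA processing in organelles, more rows rose than fell. Pentatricopeptide repeat proteins bind and edit chloroplast and mitochondrial transcripts. Of 317 such rows, 81 rose and 14 fell, 25.6% and 4.42%, with a median log2 fold change of 0.51. Beside them, 16.3% and 15.9% of all rows and 19.3% and 21.6% of rows with a named protein rose and fell. Their summed level ran the other way, at 7481 ± 1462 CPM under stress, against 11661 ± 2335 CPM in control. The summed level of all tested rows was also lower under stress. Rows at low level leant upward in general, with a median of 0.28 under 1 CPM and 0.10 from 1 to 5 CPM. OTP51 (LOC_Os02g47360), known in Arabidopsis for the splicing of a chloroplast intron, had 10.02, 10.97 and 10.5 CPM under stress, against 3.85, 4.47 and 3.502 CPM in control. A homologue of At1g31920 (LOC_Os02g46980) moved oppositely, with 6.64, 7.54 and 5.92 CPM under stress, against 14.9, 17.4 and 18.5 CPM in control. Of 85 splicing factor rows, 20 rose and 11 fell, among them the U2af small subunit A (LOC_Os09g31482), which recognises the 3′ splice site, at 63.2 ± 3.97 CPM under stress, against 37.1 ± 5.88 CPM in control. RNA helicases were even, with 14 of 70 higher and 15 lower. SDE3 (LOC_Os03g06440), a helicase of RNA silencing in Arabidopsis, fell by 1.14 ± 0.20. Of 79 rows of glycine-rich and other RNA-binding proteins, 18 rose and 11 fell. RNA-binding protein 42 (LOC_Os02g40900) had 19.9, 21.4 and 22.1 CPM under stress, against 7.94, 7.66 and 5.89 CPM in control. Glycine-rich RNA-binding protein 2 (LOC_Os03g46770), of a family known as cold- and stress-responsive RNA chaperones, had 1719.6, 1728 and 1622 CPM under stress, against 775, 785 and 791 CPM in control, one of the 5 largest rises in CPM.

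Translation genes outside the ribosome leant downward on the TMM scale, and the lean of the list medians is lost with library totals. Of 53 initiation factor rows, 9 rose and 21 fell (median -0.25, or 0.17 with library totals). Initiation factor 5A-2 (LOC_Os12g32240), which helps ribosomes through proline stretches, rose to 133 ± 3.73 CPM under stress, against 55.4 ± 3.88 CPM in control. Subunit I of initiation factor 3 (LOC_Os08g21660) had 17.3, 18.3 and 16 CPM under stress, against 31.5, 28.6 and 28.8 CPM in control. Its change of -0.79 ± 0.10 compared with -0.07 ± 0.10 in the tolerant line (adjusted p of the difference = 0.0152, and 0.0859 with library totals, where it was not called). Of 14 elongation factor rows, 1 rose and 5 fell (median -0.22, or 0.19 with library totals), and elongation factor 1-beta (LOC_Os07g46750) had 58.7 ± 2.48 CPM under stress, against 108 ± 3.404 CPM in control. Of 50 aminoacyl-tRNA synthetase rows, which charge tRNAs, 6 rose and 16 fell (median -0.18, or 0.24 with library totals). The phenylalanine enzyme's beta subunit (LOC_Os05g48510) fell by 0.92 ± 0.08. Ribosome biogenesis factors were mostly not called, with 6 of 57 higher and 7 lower. The nucleolar proteins 58 (LOC_Os07g07040) and 5-2 (listed for LOC_Os03g22730 and LOC_Os03g22740), both parts of complexes that methylate ribosomal RNA, rose by 1.302 ± 0.20 and 1.04 ± 0.07. Of 69 organelle ribosomal protein rows, 5 rose and 11 fell.

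**Figure D3:**
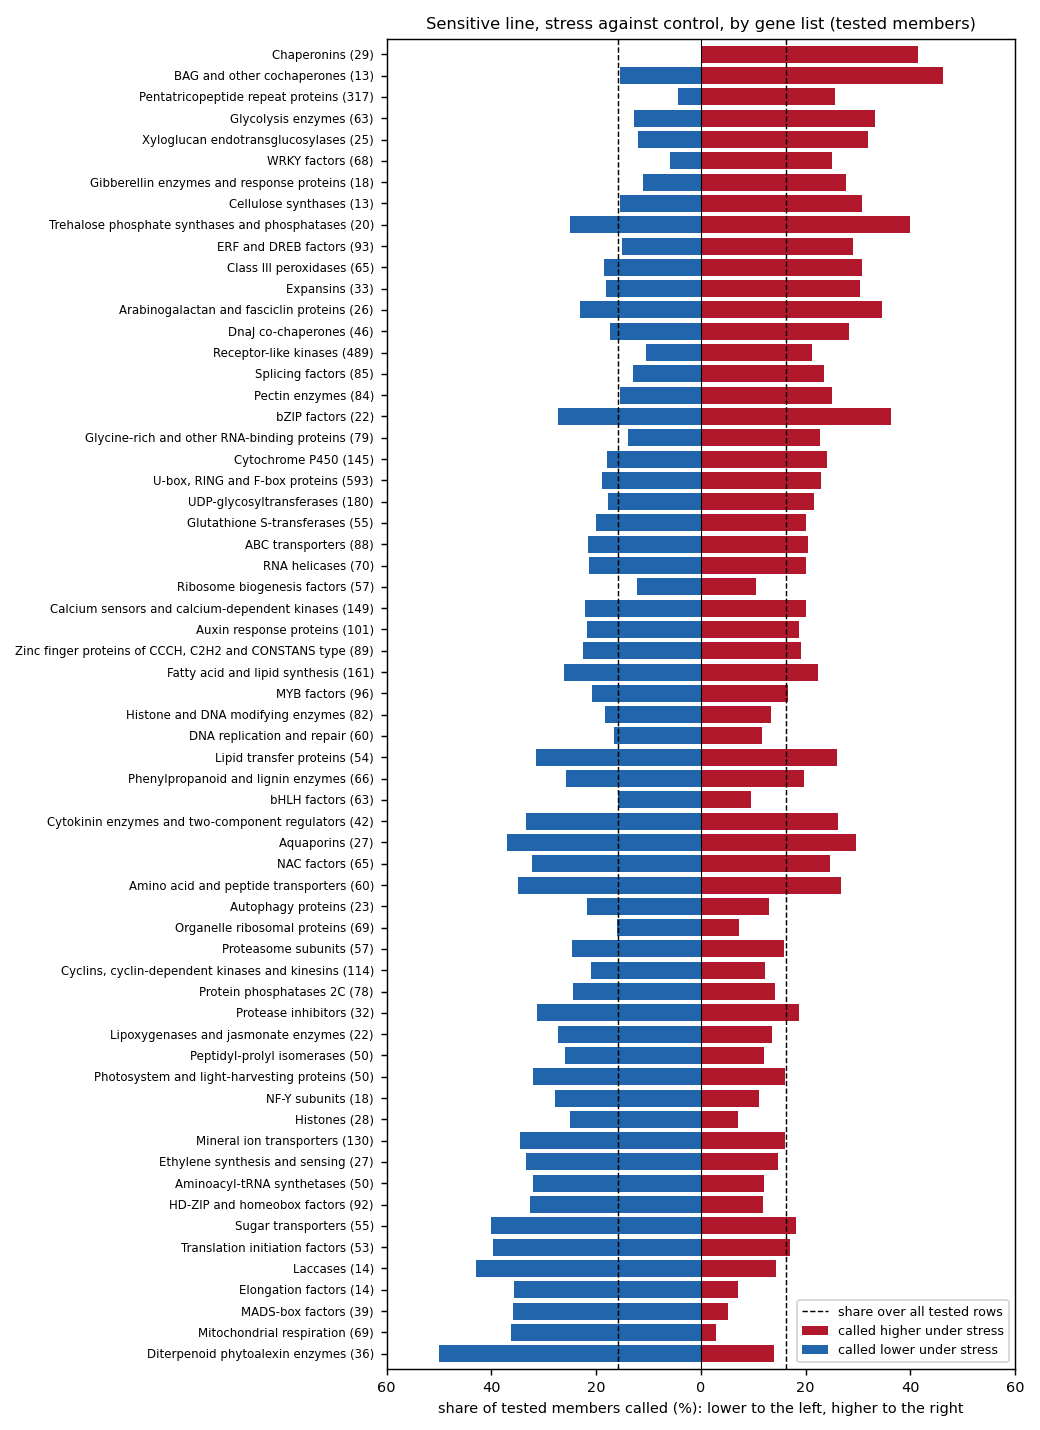
Share of tested members called lower (blue, left) and higher (red, right) under stress in the sensitive line for each gene list with at least 10 tested rows, the number tested in brackets; dashed lines mark the shares over all tested rows. Chaperonins and pentatricopeptide repeat proteins lie toward the top (41.4% and 25.6% higher), and mitochondrial respiration, MADS-box factors and diterpenoid enzymes toward the bottom (36.2%, 35.9% and 50.0% lower). Of rows with a named protein, which are not marked, 19.3% were called higher and 21.6% lower.

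In 4 lists of wall-remodelling enzymes and wall glycoproteins more rows rose than fell, which was not tested against the general calling rate. Xyloglucan endotransglucosylases cut and rejoin the xyloglucan that ties cellulose fibrils, and of 25 tested rows 8 rose and 3 fell (median 0.60). One on chromosome 6 (LOC_Os06g48200) had 126, 122 and 120.1 CPM under stress, against 15.9, 13.3 and 15.1 CPM in control, and its neighbour (LOC_Os06g48160) had 75.7, 70.1 and 70.2 CPM under stress, against 6.46, 4.72 and 6.19 CPM in control. They rose by 3.05 ± 0.08 and 3.64 ± 0.14, while a member on chromosome 10 (LOC_Os10g42670) fell by 1.86 ± 0.25. How reads shared by such similar neighbours were counted is not stated. Of 33 expansin rows, 10 rose and 6 fell. Expansin-B4 (LOC_Os10g40730), the neighbour of expansin-B6 and named after its values were seen, had 185, 193 and 191 CPM under stress, against 46.7, 39.7 and 44.8 CPM in control, and expansin-A2 (LOC_Os01g60770) had 8.67, 7.98 and 8.405 CPM under stress, against 14.02, 19.6 and 20.6 CPM in control. Of 84 pectin enzyme rows 21 rose and 13 fell, and of 26 arabinogalactan and fasciclin rows, which are wall glycoproteins, 9 rose and 6 fell. Expansins had 30.3% of rows higher and 18.2% lower, and arabinogalactan and fasciclin rows 34.6% and 23.1%. Falls in these lists were thus also above the 15.9% of all rows. Pectin enzymes had 25% higher and 15.5% lower, beside 19.3% and 21.6% of rows with a named protein. The fasciclin-like protein 10 (LOC_Os03g03600) rose to 12.8 ± 0.877 CPM under stress, against 3.12 ± 0.902 CPM in control.

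Of 13 cellulose synthase rows, 4 rose, 2 fell and 7 were not called. CESA5 (LOC_Os03g62090) and CESA6 (LOC_Os07g14850), subunits known from the primary wall in rice, had 247, 265 and 244 CPM under stress, against 118, 123 and 121 CPM in control, for the first. The second had 81.2, 82.4 and 83.97 CPM under stress, against 45.4, 44.3 and 50.9 CPM in control. They rose by 1.06 ± 0.05 and 0.82 ± 0.07. CESA4 (LOC_Os01g54620) and CESA7 (LOC_Os10g32980) make the secondary wall in rice. CESA4 had 62.3, 60.7 and 60.2 CPM under stress, against 128, 130.1 and 136 CPM in control, and CESA7 had 33.9, 31.95 and 29.4 CPM under stress, against 65.5, 59.7 and 65.5 CPM in control. Their changes of -1.105 ± 0.06 and -1.001 ± 0.08 were smaller than those of the tolerant line, -1.97 ± 0.06 and -2.22 ± 0.09 (adjusted p of the difference = 0.000169 and 0.000164). NAC43 (LOC_Os08g02300), whose Arabidopsis namesake switches on secondary walls, also fell, to 4.55 ± 0.639 CPM under stress, against 13.8 ± 1.39 CPM in control.

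Lignin genes went both ways, with falls of cinnamoyl-CoA reductase 1 and of most called laccases. Of 66 phenylpropanoid and lignin rows, 13 rose and 17 fell (median -0.25, or 0.16 with library totals), and of 14 laccase rows 2 rose and 6 fell (median -0.79, or -0.39 with library totals). Cinnamoyl-CoA reductase 1 (LOC_Os09g25150), which makes lignin precursors, had 51.6, 48.9 and 50.3 CPM under stress, against 345, 319 and 321 CPM in control, a log2 fold change of -2.71 ± 0.05 (adjusted p = 1.16e-11). The fall was larger in the tolerant line, where the log2 fold change was -3.39 ± 0.05 (adjusted p of the difference = 0.000221). Laccase-2 (LOC_Os01g44330) went against its family, with 7.29, 8.04 and 6.72 CPM under stress, against 1.07, 0.813 and 0.892 CPM in control. Class III peroxidases, which also act on lignin and in defence, had 20 of 65 rows higher and 12 lower. Peroxidase 24 (LOC_Os01g16450) had 41.9, 43.2 and 40.05 CPM under stress, against 9.67, 11.2 and 11.9 CPM in control, and peroxidase 56 (LOC_Os01g57730) rose by 2.32 ± 0.17.

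Mineral transporters had more falls than rises on the TMM scale, and water channels were called often in both directions. Of 27 aquaporin rows, 8 rose and 10 fell (median -0.43, or -0.01 with library totals). These are 29.6% and 37.0%, beside 19.3% and 21.6% of rows with a named protein. Besides the falls of PIP2-4 and TIP4-2, PIP2-6 (LOC_Os04g16450) rose, with 29.1, 26.5 and 27.2 CPM under stress, against 8.82, 7.93 and 8.08 CPM in control. Of 130 mineral ion transporter rows, 21 rose (16.2%) and 45 fell (34.6%), with a median of -0.24, or 0.17 with library totals. The metal transporter Nramp1 (LOC_Os07g15460) had 18.5, 17.9 and 18.8 CPM under stress, against 2.29, 1.705 and 2.09 CPM in control, a log2 fold change of 3.18 ± 0.20. The vacuolar iron transporter 1.2 (LOC_Os09g23300), which loads iron into vacuoles, had 6.84, 8.05 and 7.32 CPM under stress, against 32.1, 27.8 and 30.95 CPM in control, a change of -2.03 ± 0.11. ABC transporters were even, with 18 of 88 higher and 19 lower. Of 54 lipid transfer protein rows, 14 rose and 17 fell. One described as lipid-transfer protein 1 (LOC_Os03g59380) had 21.9, 21.9 and 19.5 CPM under stress, against 66.1, 66.9 and 76.1 CPM in control, where the tolerant line had 13.99, 14.9 and 12.9 CPM under stress, against 20.8, 17.02 and 17.4 CPM in control. The groups did not overlap in either line, which the naming rule required for the sensitive line only, and the sensitive controls stood highest (adjusted p of the difference = 0.00026). Another of the same description (LOC_Os01g60740) rose by 1.69 ± 0.11.

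More sugar transporter rows fell than rose. Of 55 such rows, 10 rose and 22 fell (median -0.10, or 0.32 with library totals), and their summed level was 1731 ± 59.7 CPM under stress, against 2650.3 ± 94.4 CPM in control. The summed level of all tested rows was also lower under stress. The next 3 genes were chosen after their values were seen. SWEET11 (LOC_Os08g42350), which exports sucrose toward the endosperm in rice, had 250.2, 252 and 257 CPM under stress, against 606, 589 and 594 CPM in control, a log2 fold change of -1.24 ± 0.04. The polyol transporter 5 (LOC_Os03g10090) had 242, 239 and 240.0 CPM under stress, against 578, 526 and 538 CPM in control, a change of -1.19 ± 0.04. Both fell less than in the tolerant line, at -1.68 ± 0.04 and -1.96 ± 0.05 (adjusted p of the difference = 0.000853 and 3.98e-05). SUT1 (LOC_Os03g07480), the sucrose proton symporter of the grain, had 84.1, 81.7 and 84.5 CPM under stress, against 121, 126 and 114 CPM in control, and its change of -0.53 ± 0.05 was -0.11 with library totals, where it was not called (adjusted p = 0.29). SWEET1b (LOC_Os05g35140) and SWEET2b (LOC_Os01g50460) fell by 2.27 ± 0.24 and 2.09 ± 0.17. The fall of SWEET1b was larger than the -0.30 ± 0.23 of the tolerant line (adjusted p of the difference = 0.00617). In the other direction, the MST7-like sugar transporter (LOC_Os01g38680) had 8.72, 8.41 and 10.6 CPM under stress, against 1.38, 1.36 and 2.4 CPM in control.

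A pair of amino acid permeases rose in the sensitive line and barely moved in the tolerant line. Of 60 amino acid and peptide transporter rows, 16 rose and 21 fell. Amino acid permease 3 on chromosome 12 is listed at 2 nearby loci, and the first (LOC_Os12g08090) had 25.8, 23.9 and 23.9 CPM under stress, against 9.001, 7.11 and 8.62 CPM in control in the sensitive line. The second (LOC_Os12g08130) had 35.2, 30.3 and 26.4 CPM under stress, against 10.8, 6.24 and 11.3 CPM in control. In the tolerant line the first had 10.9, 7.13 and 11.3 CPM under stress, against 9.95, 12.1 and 9.35 CPM in control, and the second had 15.1, 13.3 and 15.04 CPM under stress, against 14.5, 12.3 and 13.5 CPM in control. The tolerant groups overlapped in both rows. That the sensitive groups did not follows from the naming rule, which was not applied to the tolerant line. The differences between the lines were 1.67 and 1.59 on the log2 scale (adjusted p = 0.00244 and 0.00662). Whether the rows share reads is not stated. The cationic transporter CAT6 (LOC_Os11g05690) fell by 2.63 ± 0.24.

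Sugars of the raffinose family, which protect membranes and proteins under drought and heat, had their synthesis genes raised. Of 9 tested galactinol and raffinose rows, 7 rose and 0 fell, with a median of 0.87. Galactinol synthase 1 (LOC_Os03g20120), which makes the galactose donor, had 74.3, 77.6 and 71.2 CPM under stress, against 10.4, 11.9 and 9.44 CPM in control, a log2 fold change of 2.81 ± 0.09 (adjusted p = 5.10e-10). The galactosyltransferase 2 (LOC_Os07g10840), which makes raffinose from it, had 103, 98.97 and 101 CPM under stress, against 31.1, 30.5 and 32.2 CPM in control, a change of 1.69 ± 0.06. Summed over the list, levels were 469.99 ± 16.8 CPM under stress and 237 ± 6.61 CPM in control. Trehalose genes, of a second sugar signal, had 8 of 20 rows higher and 5 lower. A trehalose-phosphate synthase (LOC_Os08g34580) rose to 136 ± 6.53 CPM under stress, against 51.1 ± 3.29 CPM in control, less than in the tolerant line (adjusted p of the difference = 0.00244, and 0.0627 with library totals, where it was not called), and trehalose-phosphate phosphatase 9 (LOC_Os03g26910) fell by 1.12 ± 0.16.

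Among lipid genes, 2 enzymes that act on acyl chains made in the plastid rose. Stearoyl-ACP desaturase 1 (LOC_Os01g65830), which makes oleic acid, had 162, 169 and 159 CPM under stress, against 33.5, 31.4 and 31.8 CPM in control, a log2 fold change of 2.34 ± 0.08. The palmitoyl-ACP thioesterase (LOC_Os06g05130), which releases saturated fatty acids, had 42.3, 41.8 and 45.3 CPM under stress, against 8.69, 9.98 and 8.66 CPM in control, a change of 2.24 ± 0.09. The acyltransferase PLS1 (LOC_Os11g41900), an enzyme of phospholipid assembly, had 75.2, 70.4 and 73.3 CPM under stress, against 163, 154 and 160.3 CPM in control, a change of -1.12 ± 0.05. Over the whole list of 161 lipid rows, 36 rose and 42 fell. Lipoxygenases, which oxidise fatty acids, also went both ways. The 9S-lipoxygenase 4 (LOC_Os03g49380) had 43.1, 43.02 and 44.95 CPM under stress, against 17.7, 16.7 and 16.7 CPM in control, and the chloroplast lipoxygenase 8 (LOC_Os08g39850) had 12.96, 8.95 and 10.5 CPM under stress, against 27.96, 27.2 and 24.7 CPM in control. Of 22 lipoxygenase and jasmonate rows 3 rose and 6 fell.

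On the TMM scale energy genes split between glycolysis and respiration, while with library totals both list medians were above 0. Of 63 glycolysis rows 21 rose and 8 fell (median 0.14, or 0.56 with library totals). Their summed level was 5226 ± 151 CPM under stress, against 5295 ± 150 CPM in control. Hexokinase-7 (LOC_Os05g09500) had 21.3 ± 3.74 CPM under stress, against 6.37 ± 1.23 CPM in control. Cytosolic pyruvate kinase 2 (LOC_Os12g05110) had 105 ± 5.87 CPM under stress, against 160.5 ± 3.58 CPM in control. Of 69 mitochondrial respiration rows, which form the electron transport chain and the ATP synthase, 2 rose and 25 fell (median -0.17, or 0.24 with library totals), in a list narrowed after values were seen. Of those falls, 1 reached 2-fold, that of a cytochrome c oxidase subunit 5b-like row (LOC_Os06g05080), with 4.92, 5.98 and 5.205 CPM under stress, against 15.2, 12.9 and 13.5 CPM in control. The iron-sulfur subunit 2 of succinate dehydrogenase (LOC_Os09g20440) was 1 of the 2 rises, by 0.81 ± 0.09. Photosystem and light-harvesting rows had 8 of 50 higher and 16 lower. The photosystem I assembly factor PSA3 (LOC_Os05g45030) rose by 0.94 ± 0.11, and the photosystem II 10 kDa protein (LOC_Os07g05360) had 8.83, 7.899 and 7.93 CPM under stress, against 28.8, 29.5 and 24.6 CPM in control.

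Enzymes of specialised metabolism were called at many loci in both directions. Of 145 cytochrome P450 rows, 35 rose and 26 fell. CYP71A1 type (LOC_Os05g35010) had 5.57, 5.02 and 4.56 CPM under stress, against 0.445, 0.223 and 0.8001 CPM in control, and the abscisic acid 8′-hydroxylase 1 (LOC_Os02g47470), which breaks that hormone down, had 10.7, 12.7 and 9.101 CPM under stress, against 3.98, 2.19 and 3.12 CPM in control. UDP-glycosyltransferases, which attach sugars to small molecules, had 39 of 180 rows higher and 32 lower. A flavonoid 3-O-glucosyltransferase (LOC_Os03g59350) had 44.2, 41.9 and 42.8 CPM under stress, against 7.55, 7.95 and 7.67 CPM in control, while an anthocyanidin glucosyltransferase (LOC_Os07g05420) had 3.14, 4.15 and 3.63 CPM under stress, against 23.2, 22.6 and 24 CPM in control. Of 55 glutathione S-transferase rows, 11 rose and 11 fell. DHAR1 (LOC_Os05g02530), which regenerates ascorbate, rose to 223 ± 9.83 CPM under stress, against 82.7 ± 6.297 CPM in control.

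Diterpenoid phytoalexin genes fell as neighbours on 2 chromosomes. Momilactones and phytocassanes are antimicrobial diterpenoids of rice, whose genes lie in a cluster on chromosome 4 and another on chromosome 2. This list was added after values were seen. Of its 36 tested rows, 5 rose and 18 fell, 16 of the falls by 2-fold or more, and the median was -2.29 (-1.87 with library totals), against -0.81 in the tolerant line. In the table, rows from 5318060 to 5486773 on chromosome 4 held 6 described enzymes, and all 6 fell. Between 21740304 and 21863592 on chromosome 2 lay 6 described enzymes, of which 5 fell and LOC_Os02g36220 did not pass. Each stretch held 8 tested rows, and those without a description were not called. The ends of both stretches were also set with values known. LOC_Os04g10160 and LOC_Os02g36110, which bound them, are among the 12 largest falls, so the share of falls inside follows in part from the choice. Coordinates are those of the table, whose genome build is not stated.

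In the chromosome 4 cluster the syn-copalyl diphosphate synthase (LOC_Os04g09900), the first enzyme toward momilactone, had 1.14, 0.907 and 0.64 CPM under stress, against 8.71, 7.58 and 8.38 CPM in control. The next enzyme, syn-pimaradiene synthase (LOC_Os04g10060), had 0, 0.1496 and 0 CPM under stress, against 4.42, 3.17 and 3.49 CPM in control. With stress counts of 0, 16 and 0, it was 32.4-fold lower when the stress libraries were set at the floor, and its fitted fold change depends on the prior count. CYP99A2 (LOC_Os04g10160), a P450 of the pathway, had 1.03, 0.804 and 1.17 CPM under stress, against 11.05, 12.5 and 10.02 CPM in control. The pimaradiene oxidase (LOC_Os04g09920) had 0.909, 0.888 and 0.367 CPM under stress, against 3.13, 2.203 and 3.12 CPM in control. Momilactone A synthase (LOC_Os04g10010) had 0.0977, 0.0748 and 0 CPM under stress, against 0.9303, 0.879 and 1.98 CPM in control, 11.1-fold lower at the floor. A momilactone A synthase-like row (LOC_Os04g10000) had no count under stress, against 26, 36 and 59 counts in control, and was at least 4.63-fold lower. Apart from LOC_Os04g09900 and CYP99A2, every row of this cluster was under 5 CPM in each control library.

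In the chromosome 2 cluster the ent-copalyl diphosphate synthase 2 (LOC_Os02g36210), which starts the phytocassane branch, had 8.28, 7.19 and 7.304 CPM under stress, against 37.8, 34.04 and 36.6 CPM in control, a log2 fold change of -2.25 ± 0.09. The ent-cassadiene C11-hydroxylase-like P450 (LOC_Os02g36110) had 0.0684, 0.5703 and 0.264 CPM under stress, against 7.57, 7.61 and 7.096 CPM in control. Every stress library was below 1 CPM and every control library above 7 CPM. In the tolerant line the same row had 5.29, 7.24 and 5.64 CPM under stress, against 1.82, 2.77 and 1.995 CPM in control, the opposite order. The difference between the lines was -6.08 (adjusted p = 0.00026). The cassadiene synthase (LOC_Os02g36140) fell to 7.27 ± 1.17 CPM under stress, against 15.3 ± 1.36 CPM in control, and the cassadiene hydroxylase (LOC_Os02g36190) to 0.656 ± 0.246 CPM under stress, against 3.304 ± 0.436 CPM in control. The call of the isokaurene hydroxylase (LOC_Os02g36150), with 0.645, 0.262 and 0.16 CPM under stress, against 1.23, 1.14 and 0.839 CPM in control, was lost under several other settings, among them without control replicate 1 (adjusted p = 0.0935), control replicate 2 (0.0819), stress replicate 2 (0.121) or stress replicate 3 (0.121). On chromosome 8 a row of the same list went the other way: the CYP76M5-like row of LOC_Os08g39630 and LOC_Os08g39694 had 91.5, 90.5 and 83.8 CPM under stress, against 44.4, 31.1 and 48.3 CPM in control.

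**Figure D4:**
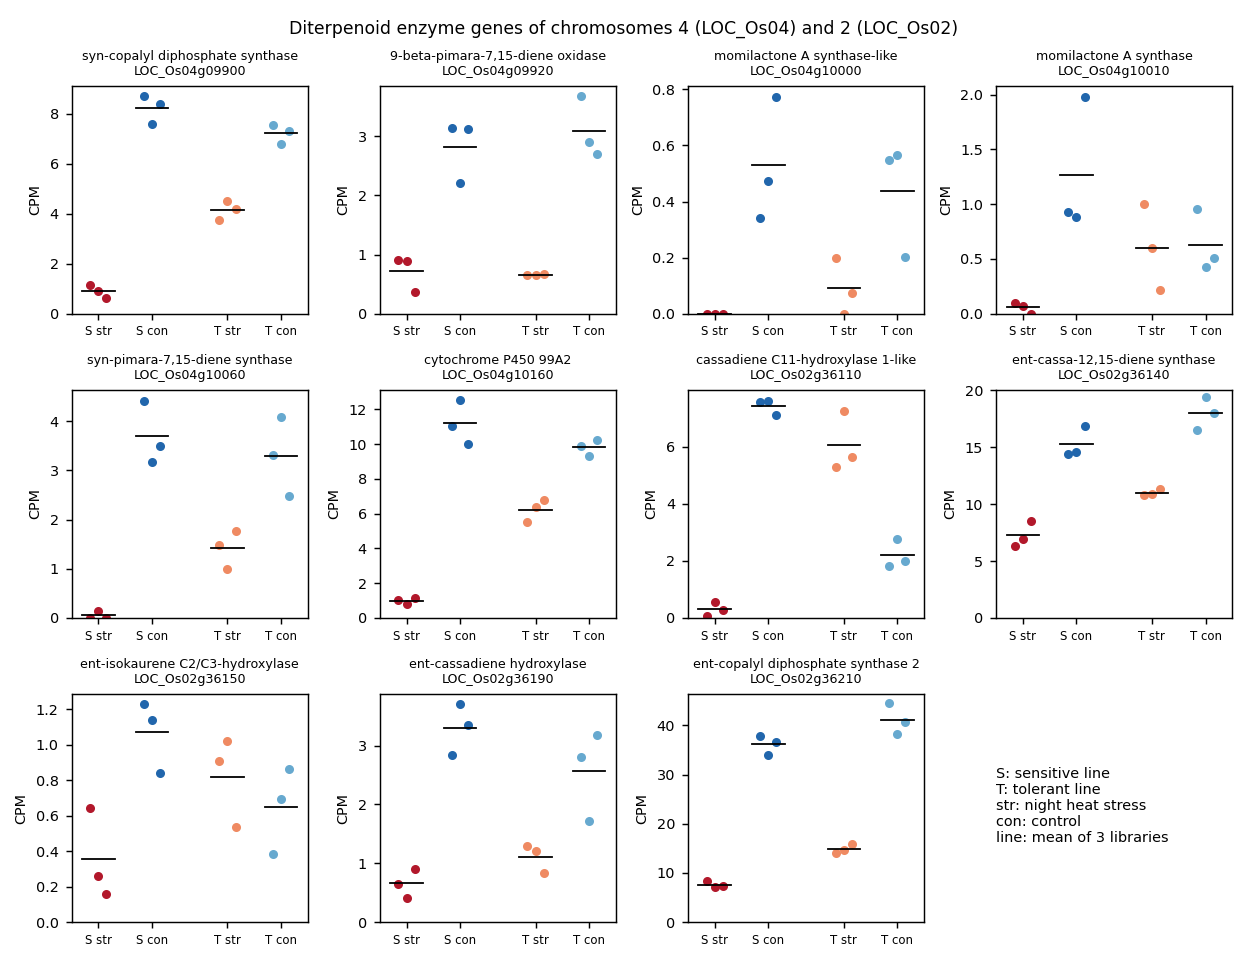
Level in CPM (vertical axes) of 11 diterpenoid enzyme genes in each library, from left to right sensitive stress, sensitive control, tolerant stress and tolerant control; points are libraries and lines are means. The panels are the cluster rows called lower in the sensitive line, so that stress lies below control in each follows from their choice, and LOC_Os02g36220, which did not pass, is not drawn; the ent-cassadiene C11-hydroxylase-like gene of chromosome 2 runs the other way in the tolerant line.

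Signalling genes contained large changes in single members. Of 489 receptor-like kinase rows, 104 rose and 51 fell (median 0.16), among them ZmPK1 type (LOC_Os01g48000), with 12.6, 15.7 and 16.05 CPM under stress, against 1.06, 1.59 and 1.34 CPM in control, and an inactive receptor kinase (LOC_Os03g21510), with 5.76, 8.07 and 5.89 CPM under stress, against 30.4, 29.3 and 31.4 CPM in control. Calcium sensors and calcium-dependent kinases had 30 of 149 rows higher and 33 lower. Calcium-dependent protein kinase 21 (LOC_Os08g42750) had 21.5, 18.2 and 17.04 CPM under stress, against 2.75, 2.56 and 3.003 CPM in control, and CBL-interacting protein kinase 21 (LOC_Os07g44290) had 17.7, 17.5 and 16.4 CPM under stress, against 49.03, 51.2 and 43.7 CPM in control. Type 2C phosphatases, several of which damp abscisic acid signals, had 11 of 78 rows higher and 19 lower. Phosphatases 29 (LOC_Os03g10950) and 31 (LOC_Os03g16760) moved by 1.91 ± 0.13 and -1.82 ± 0.16.

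Hormone lists moved in both directions. Of 27 ethylene synthesis and sensing rows, 4 rose and 9 fell (median -0.15, or 0.27 with library totals). ACC oxidase 1 (LOC_Os09g27750), which makes ethylene, had 17.3, 18.6 and 17.5 CPM under stress, against 73.3, 72.9 and 68.1 CPM in control, while ethylene receptor 3 (LOC_Os02g57530) rose by 1.21 ± 0.19. Of 101 auxin rows 19 rose and 22 fell, with a median of 0.06. The efflux carrier 5a (LOC_Os01g69070) had 1.41, 1.73 and 1.93 CPM under stress, against 10.1, 8.04 and 8.34 CPM in control, and auxin response factor 5 (LOC_Os02g04810) had 4.91, 5.198 and 4.75 CPM under stress, against 18.4, 17.7 and 13.96 CPM in control. Cytokinin enzymes and two-component regulators had 11 of 42 rows higher and 14 lower. Cytokinin dehydrogenase 1 (LOC_Os01g09260), which degrades cytokinin, fell to 17.5 ± 2.06 CPM under stress, against 35.3 ± 1.096 CPM in control, and the response regulator ORR6 (LOC_Os04g57720) fell by 1.45 ± 0.14. Of 18 gibberellin rows, 5 rose and 2 fell. Gibberellin 20-oxidase 1 type (LOC_Os03g63970), a synthesis enzyme, rose by 1.93 ± 0.26. The gibberellin-regulated protein 2 (LOC_Os05g35690), a small secreted peptide, had 1040.3, 1034 and 1017 CPM under stress, against 2374, 2252 and 2321 CPM in control, and its fall was smaller than in the tolerant line, -1.17 ± 0.03 against -1.95 ± 0.03 (adjusted p of the difference = 1.88e-06).

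Several regulators known from stress responses rose. Of 68 WRKY rows, a family of defence regulators, 17 rose and 4 fell (median 0.32). The neighbours WRKY62 (LOC_Os09g25070) and WRKY76 (LOC_Os09g25060) had 10.5, 16.4 and 17.6 CPM under stress, against 1.93, 1.89 and 2.27 CPM in control for WRKY62. WRKY76 had 31.5, 31.3 and 34.1 CPM under stress, against 5.33, 6.61 and 3.61 CPM in control. Of 93 ERF and DREB rows, 27 rose and 14 fell. ERF109 (LOC_Os02g52670) had 8.38, 9.12 and 9.03 CPM under stress, against 0.38, 0.761 and 0.826 CPM in control, and a DREB2D row, merged over LOC_Os05g39590 and LOC_Os05g39600, had 13.8, 12.1 and 11.4 CPM under stress, against 2.15, 3.48 and 2.89 CPM in control. Zinc finger protein ZAT12 (LOC_Os03g60570), known in Arabidopsis for responses to reactive oxygen, had 27.2, 23.4 and 25.1 CPM under stress, against 2.78, 2.48 and 1.99 CPM in control. Its rise of 3.38 ± 0.15 was smaller than the 4.63 ± 0.16 of the tolerant line (adjusted p of the difference = 0.00516). Of 96 MYB rows 16 rose and 20 fell, with MYB44 (LOC_Os02g09480) higher by 2.13 ± 0.13 and MYB20 (LOC_Os08g33150) at -2.38 ± 0.14. The bZIP factors 50 (LOC_Os06g41770) and 60 (LOC_Os07g44950), the first of which is activated in rice by the endoplasmic reticulum stress sensor IRE1, rose by 1.28 ± 0.11 and 0.96 ± 0.07. Among 22 bZIP rows 8 rose and 6 fell. NAC rows were also split, with 16 of 65 higher and 21 lower, and NAC2 (LOC_Os01g48446) rose by 2.01 ± 0.27. bHLH rows had 6 of 63 higher and 10 lower, with bHLH96 (LOC_Os03g08930) at 10.5 ± 0.319 CPM under stress, against 1.7 ± 0.689 CPM in control.

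The developmental families leant downward on the TMM scale. Of 39 MADS-box rows, which specify floral and seed organs, 2 rose and 14 fell (median -0.49, or -0.08 with library totals). MADS6 (LOC_Os02g45770), a regulator of floral organs and endosperm nutrients in rice, had 5.16, 4.52 and 4.499 CPM under stress, against 10.6, 10.7 and 11.3 CPM in control. MADS13 (LOC_Os12g10540), which specifies ovules, had 14.5, 17.1 and 16.6 CPM under stress, against 40.6, 35.04 and 31.9 CPM in control. Of 92 HD-ZIP and homeobox rows, 11 rose and 30 fell (median -0.10, or 0.31 with library totals). The knotted-like gene HOS66 (LOC_Os03g03164) had 7.298, 6.02 and 5.68 CPM under stress, against 35.1, 28.4 and 27.6 CPM in control. OSH1 (LOC_Os03g51690), a meristem gene, had 3.25, 2.38 and 2.31 CPM under stress, against 9.696, 9.43 and 10.8 CPM in control. NF-Y subunits had 2 of 18 rows higher and 5 lower (median -0.24, or 0.18 with library totals).

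Of the florigen family, 3 genes that fell are described here, and its other members were not counted. HEADING DATE 3A (LOC_Os06g06320), the mobile signal that starts flowering in rice, had 5.999, 5.29 and 5.05 CPM under stress, against 63.7, 57.9 and 58.5 CPM in control, a log2 fold change of -3.46 ± 0.10. The next 2 were chosen after their values were seen. A RICE FLOWERING LOCUS T 1-like row (LOC_Os01g11940) had 9.59, 8.87 and 9.43 CPM under stress, against 38.3, 36.05 and 35.3 CPM in control, a change of -1.97 ± 0.10. MOTHER OF FT AND TFL1 homologue 1 (LOC_Os06g30370), a relative known in seed germination, had 154, 150.3 and 145 CPM under stress, against 298, 284 and 292 CPM in control, a change of -0.96 ± 0.05. CONSTANS-LIKE 5 (LOC_Os06g44450), of the zinc finger family to which the regulator of florigen genes belongs, had 49.5, 47.7 and 48.4 CPM under stress, against 152, 129 and 144 CPM in control. Of 89 zinc finger rows of the CCCH, C2H2 and CONSTANS types, 17 rose and 20 fell.

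Chromatin and cell cycle genes were called about as often as all rows, at 28.3% to 33.3% of each list beside 32.1%. That is below the 40.9% of rows with a named protein, which are nearer in kind to these lists. Of 28 histone rows 2 rose and 7 fell, with histone H2A.4 (LOC_Os05g38640) at 19.4 ± 2.26 CPM under stress, against 46.4 ± 1.51 CPM in control and histone H1 (LOC_Os06g04020) at 20.4 ± 1.25 CPM under stress, against 43.01 ± 1.87 CPM in control. DNA replication and repair rows had 7 of 60 higher and 10 lower. Of 114 cyclin, cyclin-dependent kinase and kinesin rows 14 rose and 24 fell, among them cyclin-P4-1-like (LOC_Os04g46000), which fell by 1.46 ± 0.14. Among 82 histone and DNA modifying enzymes 11 rose and 15 fell. A putative cytosine-5 DNA methyltransferase (LOC_Os03g58400) had 5.56, 6.67 and 6.805 CPM under stress, against 1.297, 0.944 and 1.64 CPM in control. Histone deacetylase 5 (LOC_Os07g41090) had 27.9, 33.1 and 31.5 CPM under stress, against 65.1, 65.1 and 56.8 CPM in control.

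Among the rows with a protein description that met the naming rule, the 5 largest falls in CPM were storage proteins, and the 5 largest rises were a mixed set. Outside that rule, the 8283 rows with no description summed to 217129 ± 11334 CPM under stress, against 403444 ± 39498 CPM in control, a larger drop in CPM than that of the storage markers. Their median log2 fold change was 0.18, or 0.60 with library totals. The sum over all tested rows was also lower under stress, at 883755 CPM against 1179280 CPM in control. Glutelin type-A 1 (LOC_Os01g55690), the main storage protein family of rice, had 11212, 11274 and 11912 CPM under stress, against 22891, 23159 and 23756 CPM in control. The 13 kDa prolamin row of LOC_Os07g10570 and LOC_Os07g10580 had 5556, 5464 and 6852 CPM under stress, against 12512, 14441 and 12982 CPM in control. The 19 kDa globulin (LOC_Os05g41970) had 1858, 1772 and 1698 CPM under stress, against 8067, 8129.8 and 7990.2 CPM in control. A glutelin row merged over LOC_Os02g15070, LOC_Os02g15178 and LOC_Os02g15090 changed by -1.09 ± 0.07, and a glutelin A1-like row (LOC_Os02g25640) by -0.67 ± 0.09, a call lost with library totals (-0.25, adjusted p = 0.0835). Since these loci are near-identical copies, how the authors divided reads among them is not stated. Among the rises, the 63 kDa globulin-like protein (LOC_Os03g46100) had 5506, 5391 and 5076 CPM under stress, against 4041, 4009 and 4009 CPM in control, and cupincin (LOC_Os03g57960), a cupin protein of rice bran, had 2050.4, 2035 and 1951 CPM under stress, against 1562, 1488 and 1441 CPM in control. Both changes lay above those of the tolerant line, 0.41 ± 0.04 against 0.07 ± 0.04 and 0.43 ± 0.04 against -0.17 ± 0.04 (adjusted p of the difference = 0.00477 and 0.000158). A row merged over LOC_Os05g39680 and LOC_Os05g39690, described as a RETICULATA-related protein and an aldose reductase, had 613, 660.3 and 665 CPM under stress, against 141, 139 and 142 CPM in control. A row on chromosome 2 that carries copies of the chloroplast photosystem II genes (merged over LOC_Os02g24632 and LOC_Os02g24634) had 1758, 1450.1 and 1603 CPM under stress, against 579, 653 and 622 CPM in control, and it cannot be told apart from chloroplast transcripts.

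Rows were also counted by the Gene Ontology terms of the table. Over 443 terms with 30 to 400 tested rows, the median share called higher was 20% and the median share called lower 20.5%, with genes shared between terms. The 10 terms with the highest share of rises were led by cellulose biosynthetic process, with 17 of 35 rows higher and 1 lower. Next came protein binding in protein folding (20 of 42 higher, 7 lower), response to high light intensity (21 of 45, 11 lower), response to heat (60 of 135, 21 lower), cold acclimation (15 of 35, 6 lower) and innate immune response (17 of 40, 5 lower). Unfolded protein binding (28 of 66, 10 lower), response to virus (13 of 31, 9 lower), response to hydrogen peroxide (22 of 54, 12 lower) and cellular response to heat (13 of 32, 2 lower) completed the 10. The share of falls in the virus, high light and hydrogen peroxide terms, 29.0%, 24.4% and 22.2%, was also above the median term. The highest shares of falls were in the cytosolic small ribosomal subunit, with 49 of 83 rows lower and 4 higher, and the large subunit, with 69 of 149 lower and 10 higher. Cytoplasmic translation (21 of 46 lower, 3 higher), photosynthesis (29 of 73, 19 higher), amino acid transmembrane transport (24 of 61, 14 higher) and ion transmembrane transport (14 of 36, 8 higher) followed. Xylem development (19 of 49, 10 higher), structural constituent of ribosome (134 of 347, 23 higher), pyridoxal phosphate binding (34 of 89, 12 higher) and plastoglobule (21 of 55, 12 higher) made up the rest. With library totals, the median log2 fold changes of the small subunit, large subunit and cytoplasmic translation terms were near 0, at -0.04, 0.07 and 0.01. Those of the other 7 terms were above 0 on that scale, at 0.30 for photosynthesis, 0.21 for plastoglobule, 0.14 for xylem development and for structural constituent of ribosome, 0.12 for amino acid transport, 0.11 for pyridoxal phosphate binding and 0.03 for ion transport, while all 10 were below 0 with TMM.

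The response of the sensitive line was mostly shared with the tolerant line. In the tolerant line 11059 rows were called (33.2%). The same direction was called in both lines at 7625 rows, 71.3% of the sensitive line's calls and 68.9% of the tolerant line's, and opposite directions at 75. A further 2995 rows were called in the sensitive line and not in the tolerant line, which does not show that they differ. The difference between the responses was called at 867 rows (2.61%). Among the rows called in the sensitive line, 661 had a called difference, and 308 of these changed more in the sensitive line. Of the 159 genes named here, 38 had a called difference, with the larger change in the sensitive line for 15.

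**Figure D5:**
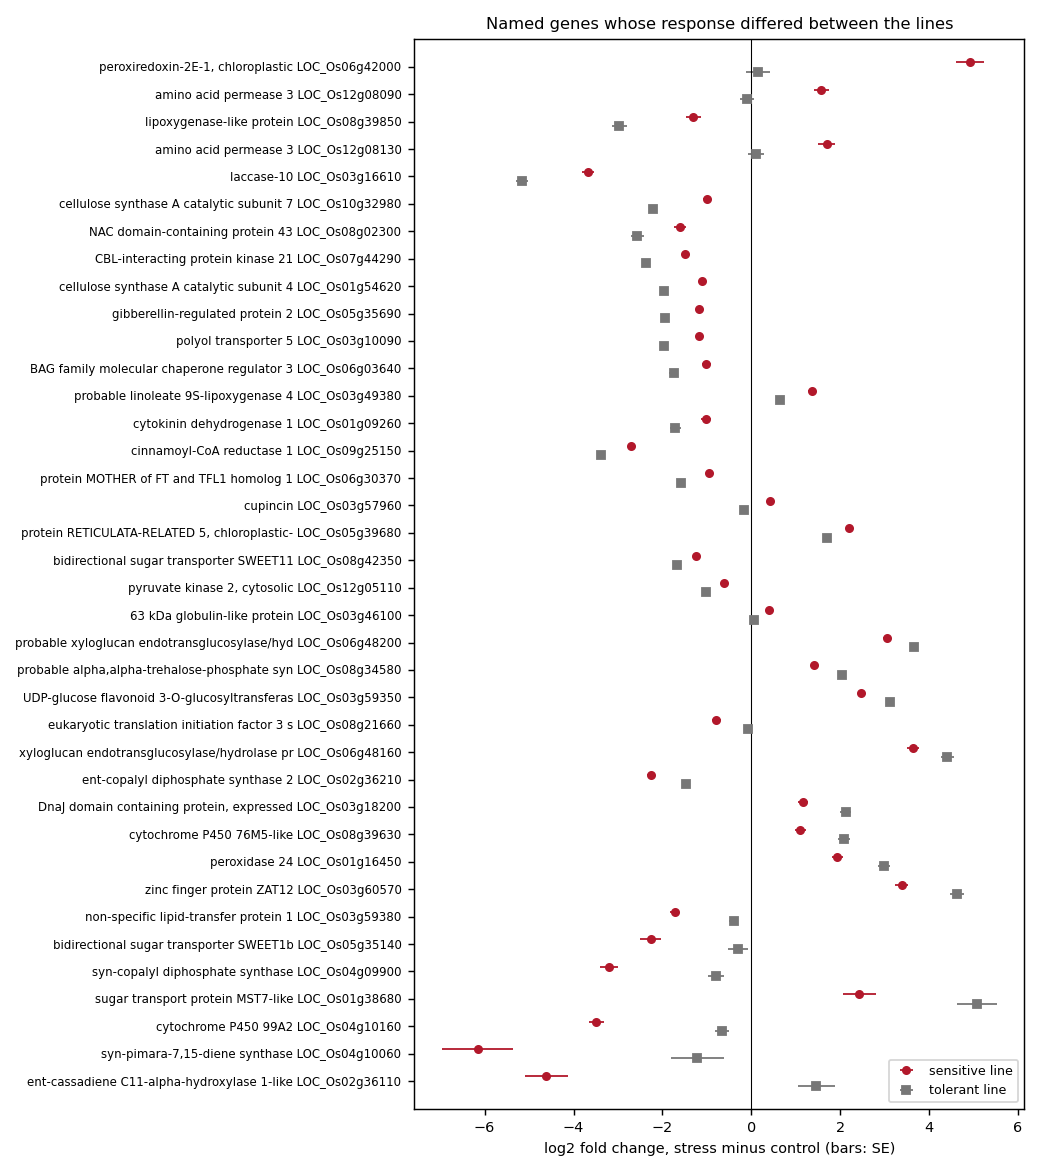
Log2 fold change, stress minus control, of the 38 named genes with a called difference between the lines, in the sensitive line (red circles) and the tolerant line (grey squares), with bars for the standard error; genes are sorted by the sensitive minus the tolerant change. Peroxiredoxin-2E-1 (4.92 ± 0.32 against 0.15 ± 0.27) and the C11-hydroxylase-like P450 (-4.61 ± 0.49 against 1.46 ± 0.42) lie at the ends.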

How the data were processed

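Ribosomal RNA-depleted total RNA was sequenced as paired reads with strand marking by dUTP, per the labels' protocols. The authors deposited whole-number counts and FPKM per row, as the file headers name them. The submitters' processing notes name edgeR, DESeq2, StringTie 2.1.6, HISAT2 2.2.1 and cutadapt 1.9 without roles. They name a mouse build although the loci are rice MSU loci, so the coordinates have no stated build. No column was left without a sample.

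Counts of all 12 libraries in 4 groups were filtered with filterByExpr, scaled by TMM and fitted with edgeR 4.0.16 in R 4.3.3 (glmQLFit, glmQLFTest, 8 residual degrees of freedom), two-sided, with Benjamini-Hochberg adjustment over 33281 rows. The script was tested on simulated data. The difference between the lines is an interaction term. Low counts may hold several counts per fragment, so the floor is 12 counts per library, an assumption of 4 counts for each of 3 fragments. Depth of 89267046 to 95433733 counts per sensitive library limits precision mainly under 1 CPM. A named gene was called, described as a protein, at 5 CPM or more in the higher group, with groups apart and an SD of log2(CPM + 0.5) under 0.5; the 12 largest rises and falls, up to 2 each way per list and the 5 largest each way in CPM were named, and others are said to be chosen after values were seen. Of 159 named loci, 11 have a second row, and the row with the higher level is given. Among them are expansin-B15, ATL44, the isomerase LOC_Os02g28980, the inhibitor LOC_Os07g12090, glycine-rich RNA-binding protein 2 and cupincin. Their other rows are not described here, so the values given are those of 1 row and not of the whole locus. Members and the 63 lists, matched on descriptions, were chosen with earlier results of these data known. After values were seen, exclusion words were added to several lists, the mitochondrial respiration list was narrowed to drop plastid rows, and the diterpenoid list was added. Alternatives were library totals with and without 5 rows, DESeq2 1.42.0 and its size factors, no filter, limma 3.58.1 on log2 FPKM with 0.1 or 1 added, the sensitive libraries alone, counts divided by 4, a replicate block, and each sensitive library left out.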

Additional observations from a re-analysis of the deposited data

Results flagged for a closer look

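For 38 of the named genes the response itself differed between the sensitive and the tolerant line at an adjusted p under 0.05 in edgeR's quasi-likelihood test. The values below are the sensitive minus the tolerant log2 fold change, and no cause was tested.

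In 6 genes the fall was larger in the sensitive line by more than 1, or turned against a rise. They were the C11-hydroxylase-like P450 LOC_Os02g36110 (-6.08), syn-pimaradiene synthase LOC_Os04g10060 (-4.94, which depends on the prior count), CYP99A2 LOC_Os04g10160 (-2.83), syn-copalyl diphosphate synthase LOC_Os04g09900 (-2.40), SWEET1b LOC_Os05g35140 (-1.96) and lipid-transfer protein 1 LOC_Os03g59380 (-1.32). Smaller differences of this kind were found for ent-copalyl diphosphate synthase 2 LOC_Os02g36210 (-0.78) and initiation factor 3 subunit I LOC_Os08g21660 (-0.72).

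A rise was smaller in the sensitive line for the MST7-like sugar transporter LOC_Os01g38680 (-2.64), ZAT12 LOC_Os03g60570 (-1.25), peroxidase 24 LOC_Os01g16450 (-1.06), the CYP76M5-like row LOC_Os08g39630 and LOC_Os08g39694 (-0.99) and the DnaJ protein LOC_Os03g18200 (-0.96). The same held for the xyloglucan endotransglucosylases LOC_Os06g48160 (-0.77) and LOC_Os06g48200 (-0.61), the flavonoid glucosyltransferase LOC_Os03g59350 (-0.64) and the trehalose-phosphate synthase LOC_Os08g34580 (-0.63).

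A rise was larger in the sensitive line, or set against no rise in the tolerant line, for peroxiredoxin-2E-1 LOC_Os06g42000 (4.77) and the amino acid permeases LOC_Os12g08090 (1.67) and LOC_Os12g08130 (1.59). It was also larger for the 9S-lipoxygenase 4 LOC_Os03g49380 (0.72), cupincin LOC_Os03g57960 (0.60), the row of LOC_Os05g39680 and LOC_Os05g39690 (0.51) and the 63 kDa globulin-like protein LOC_Os03g46100 (0.34).

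A fall was smaller in the sensitive line in the remaining genes. Wall genes among them were laccase-10 LOC_Os03g16610 (1.48), CESA7 LOC_Os10g32980 (1.22), NAC43 LOC_Os08g02300 (0.97), CESA4 LOC_Os01g54620 (0.87) and cinnamoyl-CoA reductase 1 LOC_Os09g25150 (0.68). Regulators were CBL-interacting protein kinase 21 LOC_Os07g44290 (0.88), gibberellin-regulated protein 2 LOC_Os05g35690 (0.78), BAG3 LOC_Os06g03640 (0.73), cytokinin dehydrogenase 1 LOC_Os01g09260 (0.69) and MOTHER OF FT AND TFL1 homologue 1 LOC_Os06g30370 (0.62). Transporters and enzymes were lipoxygenase 8 LOC_Os08g39850 (1.66), the polyol transporter 5 LOC_Os03g10090 (0.77), SWEET11 LOC_Os08g42350 (0.45) and pyruvate kinase 2 LOC_Os12g05110 (0.40).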

How the results depend on the processing

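The scaling set the balance of directions. Higher and lower calls were 5416 and 5279 with TMM (50.6% higher). They were 10358 and 2027 with library totals alone (83.6%), 8864 and 2785 with totals without the 5 rows with the most counts (76.1%), 11361 and 2365 in log2(FPKM + 0.1) (82.8%), and 11251 and 2375 in log2(FPKM + 1) (82.6%). In the same 4 settings, 2-fold rises numbered 5371, 4413, 5816 and 1767, and 2-fold falls 895, 1063, 1043 and 330. Total calls were 10236 to 11935 under DESeq2, its size factors, no filter and counts divided by 4, and 9824 with the sensitive libraries alone. Leaving out each sensitive library in turn gave 9059 to 9495 calls, 4509 to 4857 higher and 4497 to 4667 lower, 2395 to 2653 rises and 1660 to 1698 falls of 2-fold, and 633 to 814 calls of the difference between the lines. That difference had 867 calls with TMM and 1752 with DESeq2.

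Deviations of same-numbered stress and control libraries from their group means correlated at 0.0138 to 0.0287 over the 3 pairs of the sensitive line. Libraries of different number correlated at -0.0242 to -0.00346, so each stress library correlated best with its own number. In the tolerant line the same-number correlations of replicates 1 and 2 were -0.00872 and -0.0105. All are small, and whether the numbers pair the libraries is not settled. With the number as a replicate block, 9195 rows were called (4587 higher, 4608 lower), and the difference between the lines had 389 calls.

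Of the 159 named genes, 156 kept their direction and call under all 16 alternatives. Most were chosen from these same libraries as called rows with large changes and groups apart, so this follows largely from the choice. It does not speak for the other called rows. The exceptions were LOC_Os02g36150, LOC_Os03g07480 and LOC_Os02g25640, and 0 values were reversed. Of the 38 differences between the lines, 26 kept their call throughout. Leaving out 1 library ended the call for LOC_Os01g09260 (5 libraries, adjusted p = 0.0732 to 0.107), LOC_Os06g48160 (5 libraries, 0.0717 to 0.0976), LOC_Os01g38680 (control replicate 3 or stress replicate 1 or 2, 0.0543 to 0.0645) and LOC_Os08g02300 (stress replicate 1, 0.0538). With the replicate block 9 of the 38 were not called. Library totals ended the call of the difference for LOC_Os06g48160 (adjusted p = 0.173), LOC_Os08g21660 (0.0859), LOC_Os08g34580 (0.0627) and LOC_Os06g48200 (0.0612). For LOC_Os04g10060, with near-0 stress counts, the difference was -0.55 in log2(FPKM + 1) (adjusted p = 0.0907) and -5.31 with the replicate block (0.093). List medians changed sign with library totals in 31 of 63 lists and with DESeq2 in 0. Low rows limit precision: under 1 CPM, 11.1% of rows were called, against 73.8% over 100 CPM.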
